A study of Mus musculus with 24 samples.

Results

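The circadian clock genes described here are 10 genes of the molecular oscillator, namely *Arntl*, *Clock*, *Per1*, *Per2*, *Per3*, *Cry1*, *Cry2*, *Nr1d1*, *Nr1d2* and *Dbp*. They were chosen by name, and each matched a single row among the 55487 genes of the count table. Their transcripts were measured by mRNA sequencing of mouse embryonic fibroblasts (MEFs) of 2 genotypes, wild type (WT) and AMPK knockout (AMPK KO), the latter lacking both catalytic subunits, which *Prkaa1* and *Prkaa2* encode. Cells of each genotype received the vehicle DMSO, MK-8722 or torin1, which gives 6 groups of 4 libraries and 24 libraries in all. MK-8722 is a direct allosteric activator of AMPK, the kinase that responds to low cellular energy. Torin1 is an inhibitor of the catalytic site of MTOR, the kinase that couples growth to nutrients. The comparisons ask which clock gene transcripts respond to either compound, and whether the responses need AMPK. Each treatment of a genotype was sampled at the same 4 passages, which were numbers 12 to 15 for WT cells and 16 to 19 for AMPK KO cells, so that genotype and passage number cannot be told apart. The labels tell of no separate derivations of either genotype, so the p values below measure the spread between passages of what may be a single line each. They also give no hour of harvest and no synchronization of the cultures, and each value is therefore a level at an unstated phase of the clock.

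In the clock of mammalian cells, the proteins CLOCK and ARNTL (also named BMAL1) pair up, bind E-box sequences and activate transcription of the *Per* and *Cry* genes. PER and CRY proteins accumulate, return to the nucleus and repress CLOCK and ARNTL, which closes a loop of about a day. A further loop runs through the nuclear receptors REV-ERB alpha and REV-ERB beta, encoded by *Nr1d1* and *Nr1d2*, which repress *Arntl* and are themselves E-box targets. *Dbp* encodes a transcription factor that carries the rhythm to output genes with D-box sequences. AMPK is known as a kinase that marks CRY1 for degradation, and fibroblasts are a classical cell type in which the oscillator runs in culture.

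Total counts ranged from 26900240 to 34192685 per library, and RNA integrity numbers from 9.7 to 10.0. Of the 11 fibroblast markers examined, *Vim*, *Fn1*, *Col1a1* and *S100a4* were abundant in every library. In contrast, *Lum* was at 0 in 23 of 24 libraries and *Dcn* reached at most 11 counts. *Pdgfra* reached at most 1.78 TPM (an abundance corrected for length and depth) and *Thy1* at most 3.52. *Col1a2* ran from 3.36 to 1030 TPM, *Col3a1* from 2.82 to 92.1 and *Pdgfrb* from 11.9 to 32.8. The summed fibroblast markers lay between 6620 and 8350 TPM in WT DMSO and between 3610 and 4300 in AMPK KO DMSO. Under torin1 they lay between 8990 and 10600 in WT and between 4890 and 5410 in AMPK KO. The summed epithelial markers moved from between 1.09 and 1.62 TPM in WT DMSO to between 2.75 and 3.72 in WT torin1. The summed endothelial markers moved from between 0.214 and 0.322 TPM in WT DMSO to between 1.29 and 2.19 in WT MK-8722. The part of these marker differences in the clock gene differences was not tested. The leukocyte marker *Adgre1* was at 0 in all 24 libraries, *Ptprc* in 21 and *Lyz2* in 10, while *Cd68*, the remaining one of 4, ran from 1.64 to 5.82 TPM. *Prkaa1* transcripts were still counted in AMPK KO DMSO at 70.9 ± 2.95 CPM (counts scaled for library size, SD, n = 4), against 80.9 ± 2.00 in WT DMSO. *Prkaa2* transcripts were counted at 3.21 ± 0.970 CPM in AMPK KO DMSO, against 4.74 ± 1.12 in WT DMSO. The transcript levels of the targeted genes therefore do not check the genotype labels, since a deletion can leave a transcript that makes no protein. In bulk libraries, fewer expressing cells and less RNA per cell cannot be told apart.

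The promoter sequences below are shown for the letters they share with elements through which the clock acts on its own genes. RefSeq (build GRCm38.p6) gave start sites for 9 of the 10 genes, all but *Per2*. Windows ran from 250 bases before to 50 after each start site, and only the 250 bases before it were searched, on both strands. The elements were the E-box CACGTG, its variant CACGTT, the D-box TTANGTAA and the cyclic AMP element TGACGTCA. The REV-ERB and ROR element (AANT followed by AGGTCA) and the CLEAR element (CACGTG flanked by GT and AC) were searched as well. The CLEAR element is the longer E-box bound by TFEB and contains the letters of the E-box itself. The 250 bases upstream of the start site are printed 5′ to 3′ on the strand of the gene, with matches in capitals (CACGTT appears as AACGTG where it lies on the other strand).
Per1, chr11:69098699-69098948, plus strand: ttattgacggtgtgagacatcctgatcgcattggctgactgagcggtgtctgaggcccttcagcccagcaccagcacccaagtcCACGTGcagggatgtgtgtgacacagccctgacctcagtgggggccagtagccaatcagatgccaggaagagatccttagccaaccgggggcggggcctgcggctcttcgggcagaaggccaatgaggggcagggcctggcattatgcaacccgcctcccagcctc
Cry1, chr10:85185055-85185304, minus strand: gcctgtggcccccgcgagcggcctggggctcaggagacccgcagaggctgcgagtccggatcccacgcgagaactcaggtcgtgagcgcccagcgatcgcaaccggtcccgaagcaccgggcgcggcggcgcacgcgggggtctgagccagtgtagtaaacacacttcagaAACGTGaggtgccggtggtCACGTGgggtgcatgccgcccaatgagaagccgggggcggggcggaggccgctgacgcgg
Cry2, chr2:92434070-92434319, minus strand: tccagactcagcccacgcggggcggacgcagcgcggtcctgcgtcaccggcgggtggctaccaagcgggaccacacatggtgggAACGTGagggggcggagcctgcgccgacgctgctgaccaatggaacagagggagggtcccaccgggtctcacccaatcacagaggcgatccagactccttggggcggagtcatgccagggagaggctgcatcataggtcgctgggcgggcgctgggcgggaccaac
Nr1d1, chr11:98775378-98775627, minus strand: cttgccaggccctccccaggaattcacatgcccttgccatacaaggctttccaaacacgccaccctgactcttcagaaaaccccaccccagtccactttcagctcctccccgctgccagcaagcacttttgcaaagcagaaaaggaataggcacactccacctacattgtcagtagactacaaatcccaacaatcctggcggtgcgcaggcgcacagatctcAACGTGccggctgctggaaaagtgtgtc
Per3, chr4:151044666-151044915, minus strand: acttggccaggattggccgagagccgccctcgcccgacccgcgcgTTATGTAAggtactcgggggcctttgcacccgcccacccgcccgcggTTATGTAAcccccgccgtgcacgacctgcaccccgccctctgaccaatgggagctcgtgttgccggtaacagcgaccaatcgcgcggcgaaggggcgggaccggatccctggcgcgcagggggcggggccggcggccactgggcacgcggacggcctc

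The E-box stood at positions -166 to -161 from the start in *Per1* and at -60 to -55 in *Cry1*. It was present in 2 of 9 clock genes with a window, against 6.86% of all 27025 genes with a window. The variant lay in *Cry1*, *Cry2* and *Nr1d1*, against 4.5% of all genes. *Per3* held the D-box at -205 to -198 and again at -158 to -151, an element found in 2.44% of all genes. The CLEAR, REV-ERB and cyclic AMP elements had no match in the searched upstream part of the windows of the 9 genes. In that part, 0.27%, 0.211% and 1.77% of all genes held them. Bases after the start site were not searched, so absence of these elements there was not tested. *Per1* has a further RefSeq start site downstream, whose window had no match in its searched upstream part. These are matches of letters and not measured binding sites.

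Clock gene transcripts changed under both compounds in WT, and under torin1 in AMPK KO. A gene was called when its adjusted p from the edgeR quasi-likelihood test was under 0.05 and its fold change was at least 1.2. All 10 clock genes passed the filter on low counts and were among the 15828 genes tested. MK-8722 changed 5 of the 10 in WT, where 15.7% of all genes tested were called. *Nr1d1* and *Nr1d2* rose, against 10.0% of all genes, and *Per1*, *Per2* and *Cry2* fell, against 5.66% of all genes. In AMPK KO, MK-8722 changed 0 of the 10 by edgeR, where 1.56% of all genes were called. At an unadjusted p under 0.05 there were 3 (*Per3*, *Cry2* and *Nr1d1*), and DESeq2 also called 0. The share of all genes at that unadjusted threshold is not given here, so the 3 cannot be set against it. With passage added as a term the count was 2, *Per2* higher and *Per3* lower, where 4.61% of all genes were called. Torin1 changed 8 of the 10 in WT, where 47.6% of all genes were called. Of these, 3 were higher and 5 lower, against 26.6% and 21.1% of all genes. In AMPK KO torin1 likewise changed 8, where 43.5% of all genes were called. Of these, 2 were higher and 6 lower, against 25.9% and 17.6% of all genes. The median size of the log2 fold change under torin1 was 0.81 over the clock genes in WT and 0.35 over all genes. The corresponding medians under MK-8722 in WT were 0.36 and 0.17.

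**Figure D1:**
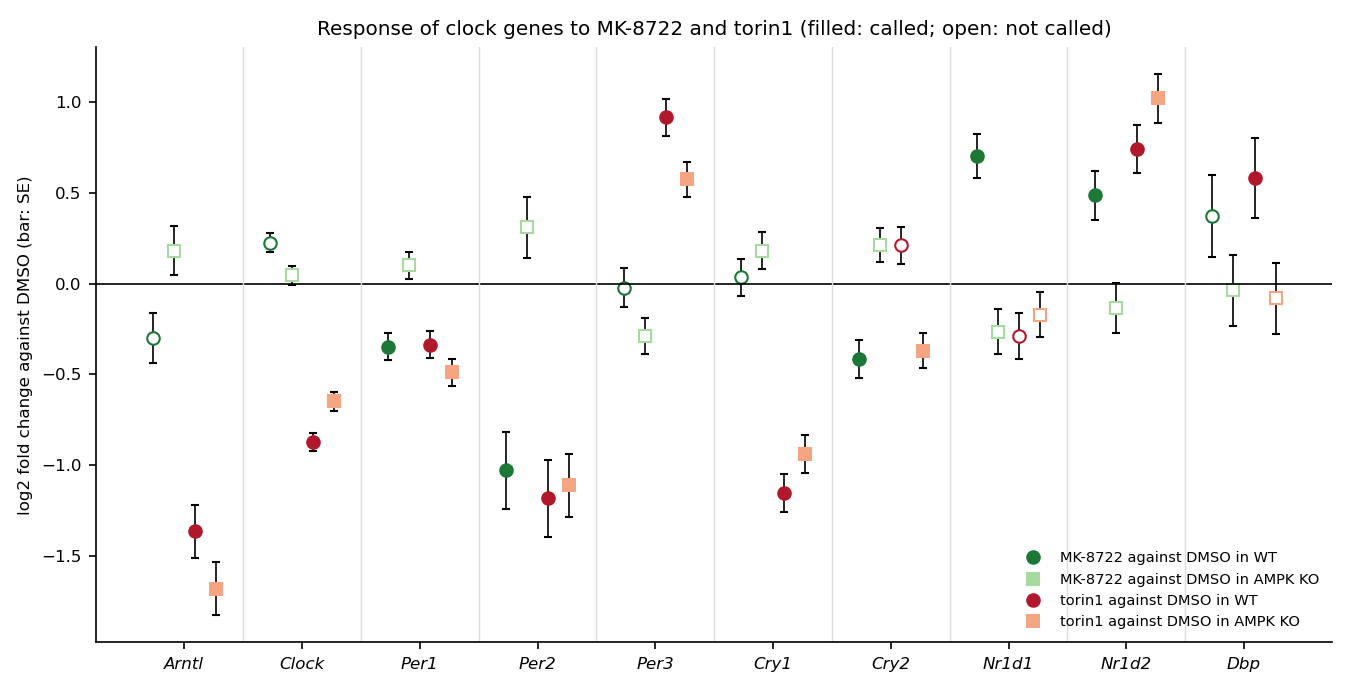
Log2 fold change against DMSO of each clock gene, with its standard error, for MK-8722 and torin1 in WT and AMPK KO; filled symbols passed the call and open symbols did not. MK-8722 in AMPK KO has no filled symbol, whereas the torin1 symbols of *Arntl*, *Clock*, *Per2* and *Cry1* lie far below 0 in both genotypes.

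The difference between genotypes in each response was tested as an interaction, the response in AMPK KO minus that in WT. For MK-8722, 5 of the 10 clock genes passed, where 12.8% of all genes were called. They were the 5 that MK-8722 changed in WT. The interaction was 1.34 (SE 0.271, adjusted p = 0.00132) for *Per2*, 0.63 (SE 0.142, adjusted p = 0.00337) for *Cry2* and 0.45 (SE 0.105, adjusted p = 0.00453) for *Per1* on the log2 scale. It was -0.97 (SE 0.175, adjusted p = 0.000453) for *Nr1d1* and -0.62 (SE 0.193, adjusted p = 0.0284) for *Nr1d2*. The MK-8722 response and its interaction share the WT libraries, so the same 5 genes in both are not separate evidence. For torin1, *Cry2* alone of the 10 passed, at -0.58 (SE 0.140, adjusted p = 0.0102), where 7.07% of all genes were called. With passage as a term, *Nr1d2* and *Dbp* passed as well, where 11.8% of all genes were called. The *Nr1d2* interaction with MK-8722 lost its call in 6 of 16 fits that each left out 1 library. These were WT DMSO replicates 1, 2 and 3, WT MK-8722 replicate 2, AMPK KO DMSO replicate 3 and AMPK KO MK-8722 replicate 1, and the adjusted p reached 0.0604.

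Of the activators, *Arntl* encodes the partner that CLOCK needs to bind DNA. Its levels in WT, in the order of passages 12 to 15, were 24.5, 26.4, 22.8 and 24.4 CPM under DMSO, 18.9, 25.5, 18.4 and 17.0 under MK-8722, and 7.32, 11.7, 8.98 and 10.1 under torin1. In AMPK KO, in the order of passages 16 to 19, they were 21.2, 27.5, 23.9 and 24.5 under DMSO, 25.5, 29.5, 26.2 and 29.0 under MK-8722, and 5.90, 9.90, 6.01 and 8.42 under torin1. All torin1 libraries lay below all DMSO libraries in both genotypes, and the MK-8722 libraries overlapped with DMSO. *Arntl* fell under torin1 by 1.37 on the log2 scale in WT (SE 0.146, adjusted p = 2.18e-08) and fell by 1.68 in AMPK KO (SE 0.148, adjusted p = 1.34e-09). The difference between the genotypes was -0.32 (95% interval -0.75 to 0.11, adjusted p = 0.383). Under MK-8722 in WT the log2 change was -0.30 (SE 0.139, adjusted p = 0.118), lower in 4 of 4 passages. Without WT MK-8722 replicate 1, the library of passage 13, it was -0.43 with an adjusted p of 0.0235. With passage added as a term it was -0.31 and called (adjusted p = 0.00787), as was its interaction with genotype at 0.49 (adjusted p = 0.00407).

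*Clock* encodes the partner of ARNTL in the activating pair. Its WT levels from passage 12 to 15 were 63.0, 63.6, 66.3 and 67.4 CPM under DMSO, 67.6, 76.7, 77.7 and 82.6 under MK-8722, and 35.4, 36.9, 34.3 and 35.5 under torin1. In AMPK KO, *Clock* stood between 56.7 and 58.3 CPM under DMSO, between 55.8 and 62.0 under MK-8722 and between 34.6 and 39.2 under torin1. The 3 WT groups did not overlap with one another, with MK-8722 highest and torin1 lowest. *Clock* fell under torin1 by 0.87 on the log2 scale in WT (SE 0.0514, adjusted p = 1.11e-12) and fell by 0.65 in AMPK KO (SE 0.0511, adjusted p = 2.20e-10). The torin1 interaction was 0.22 with an adjusted p of 0.051. MK-8722 in WT gave 0.23 (SE 0.0501, adjusted p = 0.00131), which passed the test but at 1.17-fold was under the fold required for a call. Without WT MK-8722 replicate 2 it was 0.28 and would have been called.

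**Figure D2:**
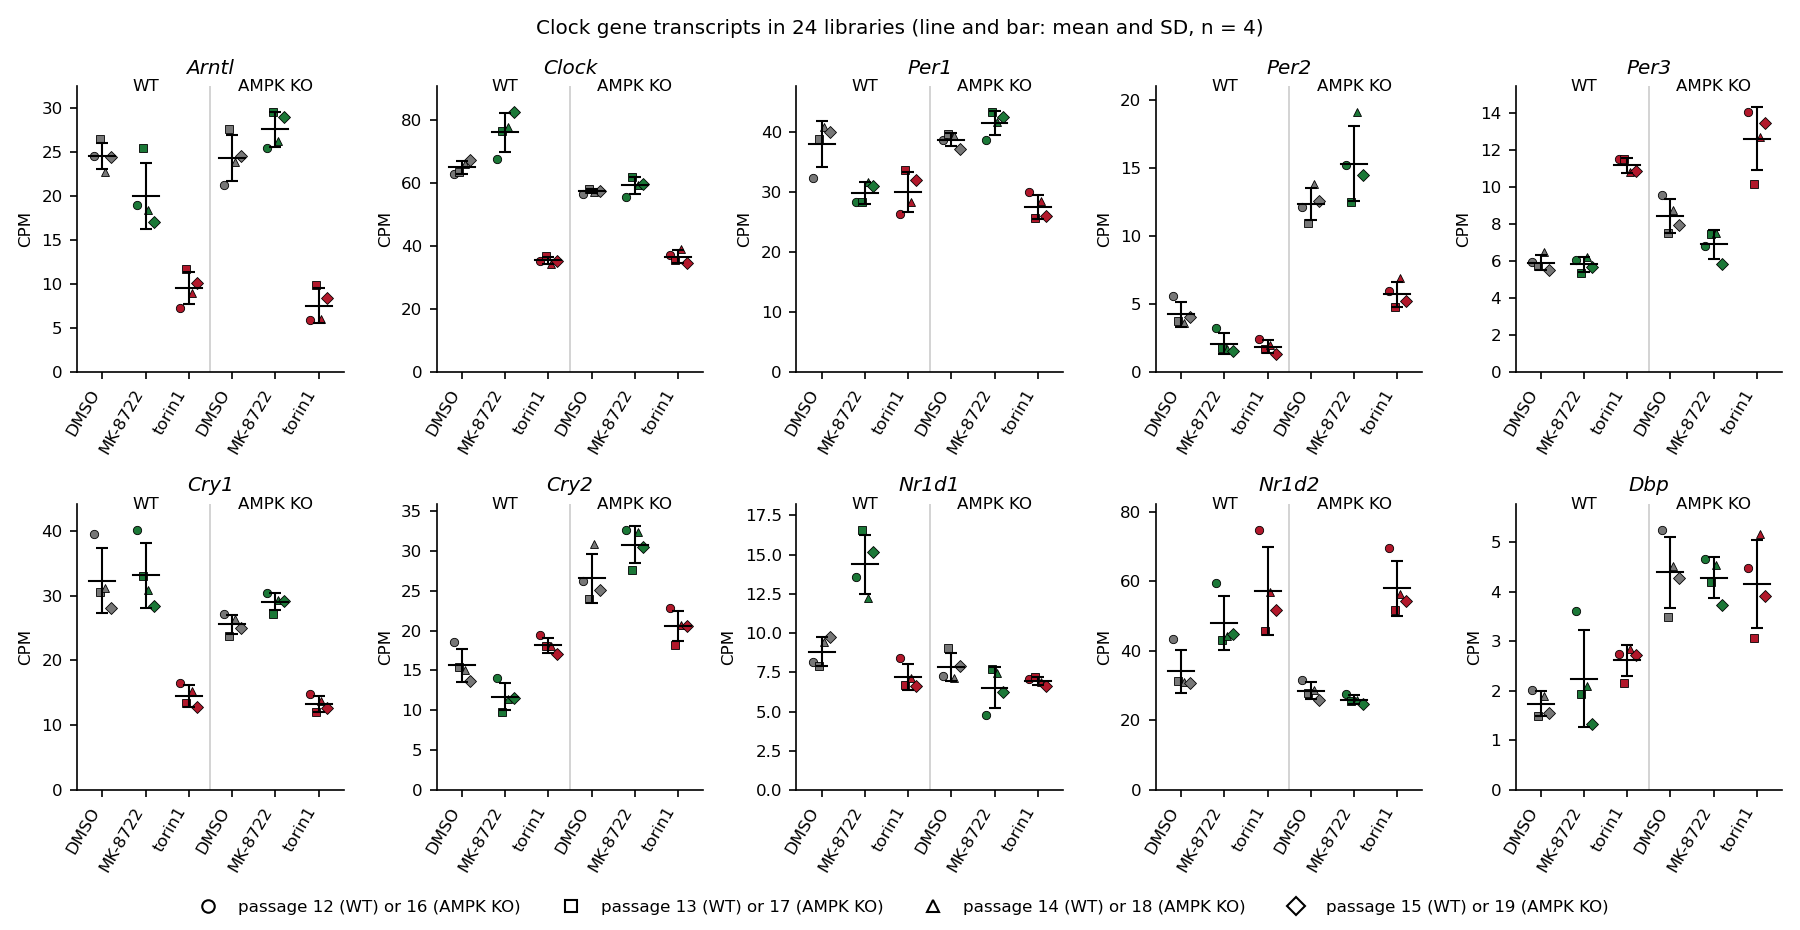
CPM of the 10 clock genes in each of the 24 libraries by genotype and treatment, with symbols for passage and black lines for the mean and SD of 4 libraries. *Per2* in AMPK KO lies above WT under every treatment, and *Nr1d1* stands highest in the 4 WT MK-8722 libraries.

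The PER and CRY proteins are the repressors of the main loop. *Per1* and *Per2* are also induced quickly by many stimuli. *Per1* levels in WT from passage 12 to 15 were 32.3, 38.8, 40.8 and 39.9 CPM under DMSO, 28.3, 28.3, 31.7 and 30.9 under MK-8722, and 26.4, 33.6, 28.3 and 31.9 under torin1. The AMPK KO libraries ran from 37.1 to 39.6 under DMSO, from 38.6 to 43.3 under MK-8722 and from 25.7 to 30.0 under torin1. All MK-8722 libraries lay below all DMSO libraries in WT, the groups overlapped in AMPK KO, and in WT the torin1 and DMSO libraries overlapped through the low DMSO library of passage 12. In WT, *Per1* fell by 0.35 under MK-8722 (SE 0.0752, adjusted p = 0.00111) and fell by 0.34 under torin1 (SE 0.0747, adjusted p = 0.000414) on the log2 scale. In AMPK KO it fell by 0.49 under torin1 (SE 0.0745, adjusted p = 5.50e-06), and the value for MK-8722 was 0.10 (95% interval -0.05 to 0.25). When the length of the transcripts used in each library was entered as an offset, the MK-8722 change in WT was -0.26 with an adjusted p of 0.0685 and the interaction was 0.35 with an adjusted p of 0.108. The main transcript of *Per1* took between 46.3% and 55.6% of its counts over the group means.

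*Per2* had the largest MK-8722 response of the 10 genes in WT. Its levels from passage 12 to 15 were 5.56, 3.73, 3.62 and 4.04 CPM under DMSO, 3.22, 1.79, 1.73 and 1.57 under MK-8722, and 2.46, 1.68, 1.98 and 1.31 under torin1. In AMPK KO, from passage 16 to 19, they were 12.1, 10.9, 13.8 and 12.5 under DMSO, 15.2, 12.5, 19.1 and 14.5 under MK-8722, and 5.99, 4.77, 6.88 and 5.19 under torin1. In WT both treated groups lay wholly below DMSO, and the passage 12 library was the highest of each group. In AMPK KO only torin1 separated from DMSO, and MK-8722 was above DMSO in 4 of 4 passages with overlapping groups. *Per2* fell in WT by 1.03 under MK-8722 (SE 0.214, adjusted p = 0.000725), a 2.04-fold decrease, and fell by 1.18 under torin1 (SE 0.213, adjusted p = 3.88e-05). In AMPK KO the torin1 change was -1.11 (SE 0.175, adjusted p = 8.91e-06) and the MK-8722 change 0.31 (SE 0.166, adjusted p = 0.368). The torin1 interaction of *Per2* was 0.07 (95% interval -0.49 to 0.64).

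*Per3*, whose product is regarded as the less essential PER protein, moved the other way under torin1. Its WT levels from passage 12 to 15 were 5.93, 5.71, 6.49 and 5.51 CPM under DMSO, 6.07, 5.33, 6.22 and 5.66 under MK-8722, and 11.5, 11.5, 10.8 and 10.8 under torin1. In AMPK KO they were 9.55, 7.51, 8.76 and 7.92 under DMSO, 6.83, 7.46, 7.53 and 5.84 under MK-8722, and 14.0, 10.2, 12.7 and 13.4 under torin1. The torin1 libraries were above all DMSO libraries of their genotype. *Per3* rose under torin1 by 0.92 in WT (SE 0.101, adjusted p = 3.34e-08) and by 0.58 in AMPK KO (SE 0.0964, adjusted p = 1.93e-05). It is also the gene whose upstream sequence above holds the D-box letters at 2 positions, and a part of these letters in the torin1 response was not tested. Under MK-8722 the change was -0.02 in WT (95% interval -0.24 to 0.20) and -0.29 in AMPK KO (SE 0.0997, adjusted p = 0.125), lower in 4 of 4 passages. *Per3* overlaps the protein-coding gene *Camta1* on the same strand, and a part of this overlap in its counts was not tested.

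*Cry1* and *Cry2* encode the strongest repressors of CLOCK and ARNTL, and they responded differently. *Cry1* levels in WT from passage 12 to 15 were 39.5, 30.6, 31.2 and 28.0 CPM under DMSO, 40.1, 33.1, 30.9 and 28.4 under MK-8722, and 16.5, 13.5, 15.2 and 12.9 under torin1. The AMPK KO levels ran from 23.8 to 27.2 under DMSO, from 27.2 to 30.4 under MK-8722 and from 12.0 to 14.8 under torin1. Torin1 lowered *Cry1* in every passage of both genotypes, and the WT MK-8722 and DMSO values were close within each passage. *Cry1* fell under torin1 by 1.15 in WT (SE 0.105, adjusted p = 1.59e-09) and fell by 0.94 in AMPK KO (SE 0.106, adjusted p = 6.51e-08). Under MK-8722 the log2 change was 0.03 in WT (95% interval -0.17 to 0.24) and 0.18 in AMPK KO (SE 0.101, adjusted p = 0.391), where the groups did not overlap.

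*Cry2* levels in WT from passage 12 to 15 were 18.6, 15.4, 15.0 and 13.7 CPM under DMSO, 14.0, 9.81, 11.5 and 11.6 under MK-8722, and 19.4, 18.0, 18.1 and 17.1 under torin1. In AMPK KO they were 26.2, 23.98, 30.9 and 25.1 under DMSO, 32.6, 27.7, 32.4 and 30.5 under MK-8722, and 22.8, 18.2, 20.7 and 20.5 under torin1. In WT, MK-8722 was below DMSO in 4 of 4 passages although the groups overlapped, and torin1 was above it in 4 of 4. In AMPK KO the torin1 libraries were all below the DMSO libraries. *Cry2* fell by 0.42 under MK-8722 in WT (SE 0.105, adjusted p = 0.00409) and fell by 0.37 under torin1 in AMPK KO (SE 0.0971, adjusted p = 0.00229). The torin1 change in WT was 0.21 (SE 0.101, adjusted p = 0.0756). *Cry2* was thus the clock gene whose torin1 response differed between genotypes, by the interaction given above. Torin1 in WT would be called for *Cry2* without the 3 passage 12 libraries, at 0.27 with an adjusted p of 0.023.

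The REV-ERB receptors repress *Arntl* and bind heme. *Nr1d1* levels in WT from passage 12 to 15 were 8.16, 7.94, 9.44 and 9.76 CPM under DMSO, 13.6, 16.6, 12.2 and 15.2 under MK-8722, and 8.44, 6.66, 7.12 and 6.64 under torin1. Those in AMPK KO were 7.26, 9.06, 7.14 and 7.88 under DMSO, 4.78, 7.68, 7.44 and 6.22 under MK-8722, and 7.07, 7.20, 6.91 and 6.62 under torin1. The 4 WT MK-8722 libraries stood above all other libraries. *Nr1d1* rose under MK-8722 in WT by 0.70 (SE 0.122, adjusted p = 0.000106), a 1.63-fold increase. In AMPK KO the MK-8722 change was -0.26 (SE 0.126, adjusted p = 0.296), lower in 3 of 4 passages. Under torin1 it was -0.29 in WT (SE 0.125, adjusted p = 0.0504) and -0.17 in AMPK KO (SE 0.125, adjusted p = 0.252). The WT torin1 value lay at the threshold and was called without WT DMSO replicate 2 (0.0282), WT DMSO replicate 4 (0.0385) or WT torin1 replicate 4 (0.0163). It was also called with passage added as a term (adjusted p = 0.0395). The gene overlaps *Thra* on the opposite strand, and the use of strand in counting is not given in the sources used here. The MK-8722 value of *Thra* in WT was -0.09, without a call.

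*Nr1d2* responded to both compounds. Its WT levels from passage 12 to 15 were 43.5, 31.3, 31.0 and 30.9 CPM under DMSO, 59.5, 43.2, 44.3 and 44.9 under MK-8722, and 74.8, 45.7, 56.9 and 51.6 under torin1. The levels in AMPK KO were 31.6, 28.0, 28.8 and 25.8 under DMSO, 27.7, 25.7, 25.8 and 24.9 under MK-8722, and 69.5, 51.8, 56.4 and 54.4 under torin1. Passage 12 was the highest library of all 3 WT groups and passage 16 of all 3 AMPK KO groups. The WT MK-8722 and DMSO libraries overlapped through the passage 12 DMSO library, while MK-8722 was higher within 4 of 4 passages. *Nr1d2* rose in WT by 0.49 under MK-8722 (SE 0.135, adjusted p = 0.00839) and by 0.74 under torin1 (SE 0.134, adjusted p = 4.05e-05). In AMPK KO it rose by 1.02 under torin1 (SE 0.134, adjusted p = 7.08e-07), and the MK-8722 value was -0.14 (SE 0.138, adjusted p = 0.696), lower in 4 of 4 passages.

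*Dbp*, the output factor, had the lowest CPM of the 10 genes in WT DMSO. Its WT levels from passage 12 to 15 were 2.01, 1.499, 1.90 and 1.55 CPM under DMSO, 3.62, 1.95, 2.10 and 1.34 under MK-8722, and 2.75, 2.16, 2.84 and 2.72 under torin1. In AMPK KO they ran from 3.50 to 5.25 under DMSO, from 3.73 to 4.66 under MK-8722 and from 3.06 to 5.17 under torin1. The WT torin1 libraries were all above the DMSO libraries, and the 3 AMPK KO groups overlapped. *Dbp* rose under torin1 in WT by 0.58 (SE 0.220, adjusted p = 0.0254). That call was lost without WT DMSO replicate 2 (adjusted p = 0.0758), WT DMSO replicate 3 (0.0707) or WT torin1 replicate 4 (0.0537). In AMPK KO the torin1 change was -0.08 (95% interval -0.48 to 0.32), and the interaction of -0.66 did not pass (adjusted p = 0.163). MK-8722 gave 0.37 in WT (SE 0.226, adjusted p = 0.244). Without WT MK-8722 replicate 2, the high library of passage 12, it was 0.05. *Dbp* overlaps *Sphk2* on the opposite strand. The genes that overlap *Arntl*, *Clock* and *Cry2* are not annotated as protein-coding.

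Set side by side in WT, torin1 and MK-8722 differed for 6 of the 10 genes, where 45.7% of all genes were called. Of these, 4 were lower under torin1, against 21.2% of all genes, and 2 higher, against 24.5%. Torin1 was lower than MK-8722 for *Cry1* by a log2 change of -1.19, for *Clock* of -1.10, for *Arntl* of -1.07 and for *Nr1d1* of -0.99. It was higher for *Per3* at 0.94 and for *Cry2* at 0.63. The adjusted p of these 6 was at most 1.45e-05. *Per1* and *Per2*, which both compounds lowered in WT, gave 0.01 (95% interval -0.15 to 0.17) and -0.15 (95% interval -0.64 to 0.33). The difference for *Nr1d2* was 0.26 (SE 0.132, adjusted p = 0.102). It was called without WT MK-8722 replicate 2, at 0.40 (adjusted p = 0.0129), or WT torin1 replicate 2, at 0.34 (adjusted p = 0.0321), and was 0.11 without WT torin1 replicate 4. *Dbp*, at 0.21 (adjusted p = 0.416), was called without WT MK-8722 replicate 2, at 0.56 (adjusted p = 0.0163).

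Without a compound, 5 of the 10 clock genes differed between AMPK KO and WT, where 56.9% of all genes were called. Of these, 4 were higher in AMPK KO, against 30.9% of all genes, and 1 was lower, against 26.0%. The count called either way is near the background of 56.9%. The median size of the log2 fold change was 0.30 over the clock genes and 0.41 over all genes. *Per2* was 1.54 higher on the log2 scale in AMPK KO DMSO (SE 0.182, adjusted p = 6.80e-08), at 12.3 ± 1.21 against 4.23 ± 0.899 CPM (SD, n = 4). *Dbp* was 1.33 higher (SE 0.213, adjusted p = 6.07e-06), at 4.39 ± 0.722 against 1.74 ± 0.252 CPM. *Cry2* was 0.76 higher (SE 0.0995, adjusted p = 3.26e-07) and *Per3* 0.51 higher (SE 0.102, adjusted p = 9.53e-05). The DMSO libraries of the genotypes did not overlap for 6 of the 10 genes, namely these 4, *Cry1* and *Clock*. The share of all genes without overlap is not given here, so the 6 cannot be set against it. *Clock* was lower by a log2 change of -0.18 (SE 0.0502, adjusted p = 0.00297), which is under the fold required for a call. *Cry1* was lower by a log2 change of -0.34 (SE 0.101, adjusted p = 0.00493), a call that was lost without WT DMSO replicate 4. The value was then -0.24, which is under the fold required. *Arntl* and *Per1* differed by -0.02 (95% interval -0.30 to 0.27) and 0.03 (95% interval -0.13 to 0.18). The *Nr1d2* value was -0.26 (adjusted p = 0.0934) and was called without WT DMSO replicate 1, 2 or 3, with adjusted p values from 0.039 to 0.0416. Since passage number differs between the genotypes throughout, these values hold for AMPK KO cells at higher passage against WT cells at lower passage.

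Levels were compared between genes in TPM. In WT DMSO the order was *Cry1* at 17.3 ± 2.86, *Arntl* at 14.0 ± 0.774, *Nr1d2* at 13.7 ± 2.85, *Per1* at 13.1 ± 1.61 and *Clock* at 12.7 ± 0.509 TPM (SD, n = 4). *Cry2* followed at 6.51 ± 0.894, *Nr1d1* at 5.15 ± 0.612, *Dbp* at 1.80 ± 0.421, *Per3* at 1.79 ± 0.184 and *Per2* at 1.09 ± 0.235 TPM. The leading 5 genes overlapped with their neighbours in range, as did *Cry2* with *Nr1d1* and *Dbp* with *Per3*. Gaps without overlap lay between *Clock* and *Cry2*, between *Nr1d1* and *Dbp*, and between *Per3* and *Per2*. In AMPK KO DMSO *Per2* stood at 3.58 ± 0.521 TPM and *Per3* at 2.76 ± 0.487 TPM, with overlapping ranges. A single transcript took at least 90.3% of the counts of *Cry1*, *Cry2*, *Nr1d1*, *Nr1d2* and *Per2* in every group mean, while the main transcript of *Clock* took from 47.2% to 54.1%.

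Clock gene levels also varied with passage within a treatment. Each passage was present under all 3 treatments of its genotype, so the deviations of its 3 libraries from their group means could be tested together. In WT the passage term passed for 5 of the 10 clock genes at an adjusted p under 0.05, where 19.1% of all genes passed. These were *Nr1d2* (adjusted p = 3.22e-06), *Cry1* (1.78e-05), *Per2* (0.000813), *Cry2* (0.021) and *Arntl* (0.0365). At passage 12 the 3 libraries stood above their group means by 0.50 for *Per2*, 0.36 for *Nr1d2*, 0.26 for *Cry1* and 0.21 for *Cry2* in log2 CPM, each in 3 of 3 libraries. *Arntl* was lower there, at -0.14, and highest at passage 13, at 0.26. Without the 3 libraries of passage 12, *Arntl* alone of the 10 passed.

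In AMPK KO the same 5 genes passed the passage test, where 13.0% of all genes passed, and over all genes 871 of the 3026 that passed in WT also passed in AMPK KO. That count was unstable, since leaving out any 1 of the 12 AMPK KO libraries left 1 to 3 of the 10. *Per2* was highest at passage 18, at 0.26, and lowest at passage 17, at -0.23. *Arntl* was highest at passage 17, at 0.24, and lowest at passage 16, at -0.20. *Nr1d2* was highest at passage 16, at 0.17. At the passage where *Arntl* was highest, *Cry2* stood at -0.09 in WT and -0.15 in AMPK KO, and *Nr1d2* at -0.18 and -0.07. *Clock*, *Per1*, *Per3*, *Nr1d1* and *Dbp* did not pass in either genotype. Which day or hour each passage was harvested is not given in the labels, and its part in these deviations was not tested.

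**Figure D3:**
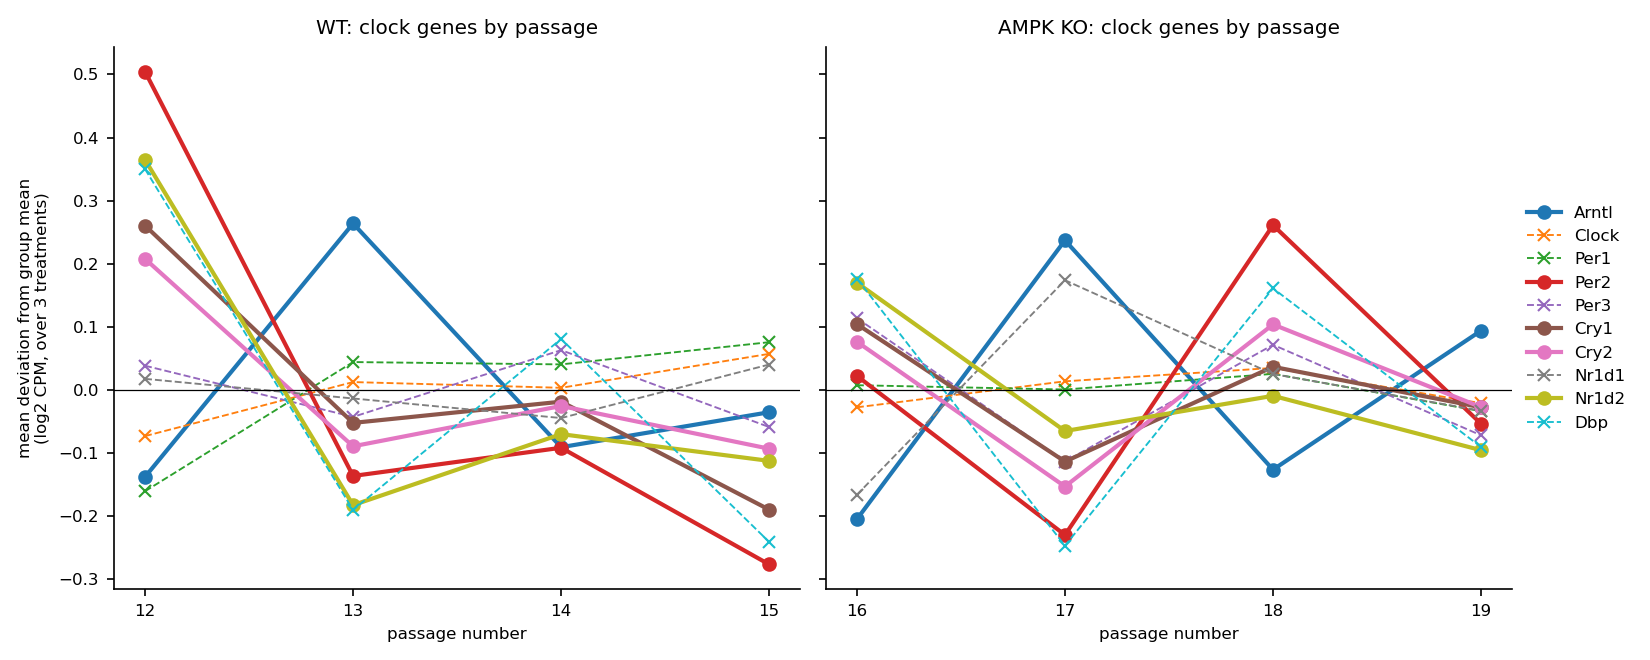
Mean deviation of each clock gene from its group mean in log2 CPM over the 3 treatments, by passage number, for WT and AMPK KO; solid lines with circles passed the passage test and dashed lines with crosses did not. *Per2*, *Nr1d2*, *Cry1* and *Cry2* are high together at WT passage 12, with *Per2* at 0.50, where *Arntl* is at -0.14.

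Across the 24 libraries, with each genotype centred on its own mean, *Clock* and *Cry1* had a correlation of 0.92 and *Arntl* and *Cry1* of 0.87 in log2 CPM. *Arntl* and *Nr1d2* stood at -0.92, and *Clock* and *Per3* at -0.92. These values describe libraries that share treatments and passages. Of the genes with a mean of at least 5 CPM, those whose pattern was most like *Arntl* were *Septin11* (r = 0.981), *Heatr3* (0.979) and *Nfil3* (0.978). For *Nr1d1* they were *Pkn2* (0.88), *Fgfr1op* (0.873) and *Ugcg* (0.867), and for *Per1* they were *Nxn* (0.928), *Cactin* (0.916) and *Zcchc17* (0.906). For *Dbp*, the remaining one of the 4 genes examined in this way, they were *Cbx6* (0.789), *E2f1* (0.788) and *Gfpt2* (0.748).

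A list of 23 other genes of the clock was followed beside the 10, and all 23 were tested. It holds paralogues of the activators, ROR receptors, D-box factors, further repressors and enzymes that modify clock proteins. MK-8722 in WT raised 6 and lowered 1 of them, against 10.0% of all genes called higher and 5.66% called lower. *Bhlhe40*, which encodes the repressor DEC1, rose by 1.24 (SE 0.121, adjusted p = 4.02e-08), from 15.0 ± 1.46 to 35.6 ± 3.91 CPM (SD, n = 4). Its relative *Bhlhe41* rose by 1.40 (SE 0.291, adjusted p = 0.000709), and *Rora*, an activator of *Arntl*, by 1.30 (SE 0.229, adjusted p = 0.000128). *Nampt*, which encodes the enzyme of NAD+ salvage, rose by 0.64 (SE 0.0681, adjusted p = 1.47e-07). *Wee1*, a cell cycle kinase, rose by 0.27 (SE 0.0533, adjusted p = 0.000405), and *Usp2* fell by 0.32 (SE 0.119, adjusted p = 0.0436). The *Usp2* groups overlapped, with 3 of 4 passages lower, and the call was lost with passage added as a term (adjusted p = 0.0594). For MK-8722 in AMPK KO 0 of the 23 were called by edgeR and 0 by DESeq2. At an unadjusted p under 0.05 there were 4, again without a share of all genes to set them against. With passage added as a term 2 were called, *Bhlhe41* at 0.82 (adjusted p = 0.0185) and *Ciart* at 0.48 (adjusted p = 0.0129), where 4.61% of all genes were called. The MK-8722 interaction passed for 5 of the 23, where 12.8% of all genes were called. All 5 had a lower MK-8722 response in AMPK KO, among them *Rora*, *Bhlhe40*, *Nampt* and *Wee1*.

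Torin1 raised 10 and lowered 2 of the 23 in WT, against 26.6% of all genes called higher and 21.1% called lower. It raised 7 and lowered 3 in AMPK KO, against 25.9% and 17.6% of all genes. With 47.6% and 43.5% of all genes called in these comparisons, the counts of the list called either way are near the background. *Ciart*, a repressor of CLOCK and ARNTL, fell by 2.90 in WT (SE 0.261, adjusted p = 1.27e-09) and fell by 2.93 in AMPK KO (SE 0.259, adjusted p = 1.47e-09), from 6.98 ± 2.03 to 0.929 ± 0.224 CPM in WT (SD, n = 4). *Nfil3*, a repressor at D-box sequences, fell by 1.205 in WT and fell by 1.36 in AMPK KO. *Rora* rose by 1.52 in WT and 2.57 in AMPK KO, and *Bhlhe41* by 1.56 and 1.36. AMPK KO DMSO differed from WT DMSO in 14 of the 23, with 7 higher and 7 lower, which is near the background of 56.9% of all genes called. *Rorb* was 5.20 higher, at 5.24 ± 0.771 against 0.141 ± 0.0670 CPM, *Npas2* 2.33 higher, *Usp2* 1.79 higher and *Tef* 0.997 higher, all on the log2 scale. *Npas2* stood at 0.627 ± 0.125 against 0.120 ± 0.0381 CPM, so that *Rorb* and *Npas2* both had very low counts in WT DMSO. *Rora* was lower at -1.30 and *Nfil3* at -0.73.

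**Figure D4:**
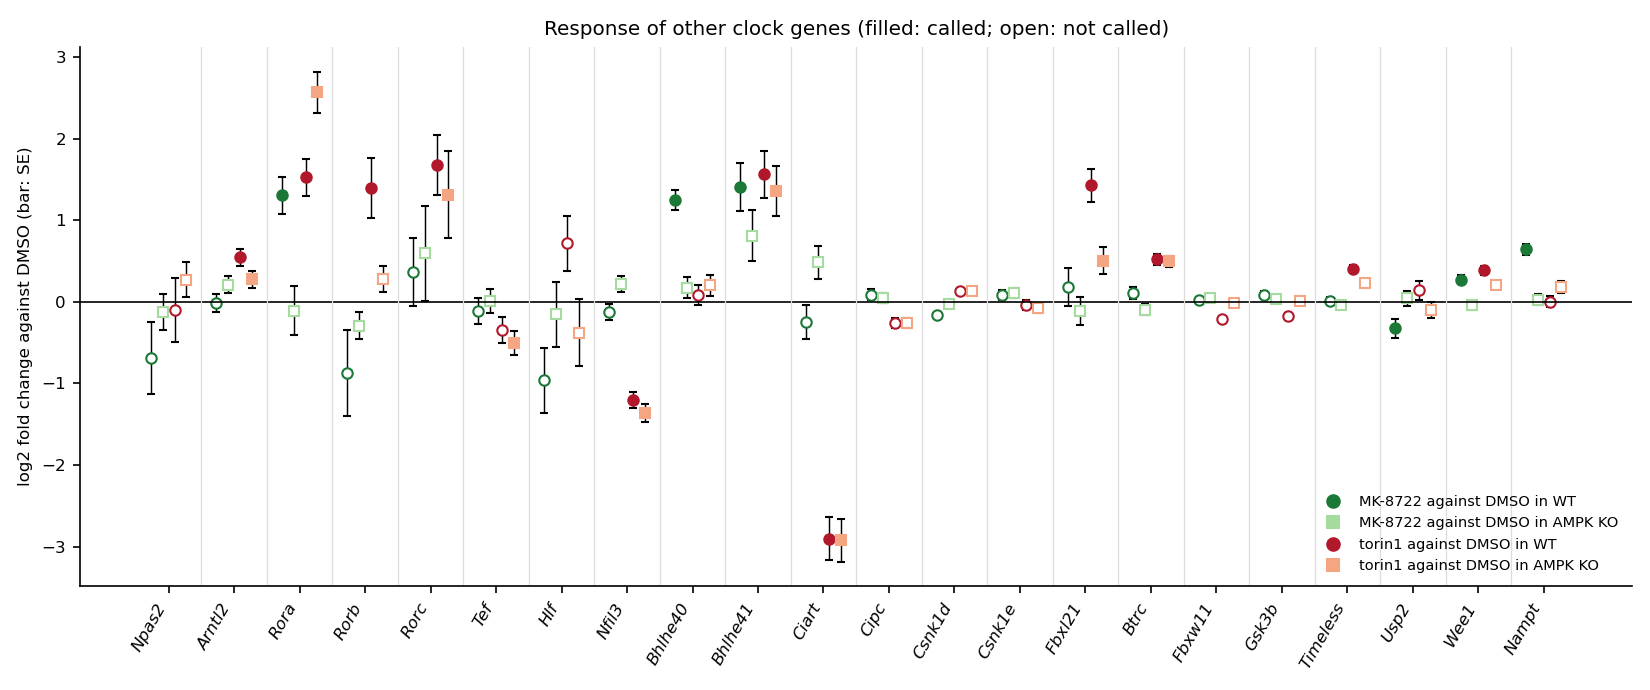
Log2 fold change against DMSO, with its standard error, of the further clock genes shown here for both compounds in both genotypes; filled symbols passed the call and open symbols did not. *Ciart* is the lowest gene under torin1 in WT, at -2.90, with nearly the same value in AMPK KO, and *Bhlhe40* is called only for MK-8722 in WT.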

How the data were processed

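The authors aligned paired-end reads of poly(A) RNA to the mouse genome GRCm38 with STAR inside the nf-core/rnaseq workflow. The deposited tables hold Salmon's estimated counts per gene and, per transcript, estimated counts, effective lengths and TPM. They are not normalized between libraries, and 14.7% of the gene values were not whole numbers, so the counts were rounded. The handling of molecular identifiers, which bears on duplicates, was not tested here.

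Libraries were grouped by their labels for genotype and treatment, with passage as labelled. Genes were filtered with filterByExpr, scaled with TMM factors and fitted with 6 group means over 24 libraries in edgeR 4.0.16 (R 4.3.3), using its two-sided quasi-likelihood test. Adjusted p values follow Benjamini and Hochberg over 15828 genes. To be called, a gene had to pass 0.05 there and change at least 1.2-fold. Log2 CPM used a prior count of 2. Passage was tested by adding passage terms within each genotype, with no fold requirement. Intervals are 95% and use the standard errors of the same fit. Alternatives were other scalings, filters, thresholds, a transcript length offset, DESeq2 1.42.0, blocks for passage or replicate number, and each library left out in turn. The steps were tested on simulated data. Sequences and start sites came from RefSeq (GRCm38.p6). The genes named were the 10 clock genes, the others in the list of 23 (1 of them is counted but not reported here by name), and the 3 genes most like each of 4 clock genes. The genes, lists and tests were chosen with earlier results of these data known.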

Additional observations from a re-analysis of the deposited data

Results flagged for a closer look

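In 3 cases a library stood far from the other libraries of its group, by the gap to the nearest library over the range of the group. These were *Per2* in WT MK-8722 replicate 2, at 3.22 CPM with the others from 1.57 to 1.79, *Nr1d2* in WT DMSO replicate 4, at 43.5 CPM with the others from 30.9 to 31.3, and *Nr1d2* in WT MK-8722 replicate 2, at 59.5 CPM with the others from 43.2 to 44.9. Both libraries are of passage 12. Of 60 such tests 3 passed, and chance flags about 1 in 20 groups. Without the 3 libraries of WT passage 12, the calls for MK-8722 in WT were the same 5 clock genes.

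The response to MK-8722 differed between genotypes for 5 clock genes by the interaction test, with log2 values of 0.45 for *Per1*, 1.34 for *Per2*, 0.63 for *Cry2*, -0.97 for *Nr1d1* and -0.62 for *Nr1d2*, AMPK KO minus WT. The response to torin1 differed for *Cry2*, at -0.58.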

How the results depend on the processing

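Of 1020 log2 fold changes of the clock genes under alternatives that kept every group, 964 kept their direction and side of the call. Of the rest, 28 lost the call and 20 gained it. A further 8 that were not called changed sign, and 0 that were called changed sign. With a fold change of at least 1.5, calls were 2 with MK-8722 in WT, 5 with torin1 in AMPK KO, 3 between genotypes and 0 for the torin1 interaction. Testing against a fold of 1.2 gave 2 for MK-8722 in WT, 2 for its interaction and 0 for the torin1 interaction. The transcript length offset gave 3 for the MK-8722 interaction, 3 for passage in WT and 2 for passage in AMPK KO, and fitting the compared libraries alone gave 3 for passage in WT. Leaving out the 3 libraries of WT passage 12, chosen after seeing the data, gave 1 for passage in WT. Leaving out 1 library gave 5 to 6 for MK-8722 in WT, 7 to 10 for torin1 in WT, 0 to 0 and 8 to 8 for the same compounds in AMPK KO, 4 to 6 between genotypes, 6 to 8 for torin1 against MK-8722, 4 to 6 and 1 to 1 for the interactions with MK-8722 and torin1, and 4 to 6 and 1 to 3 for passage in WT and AMPK KO. The cause of these shifts was not tested. Under scaling by library size alone the median over all genes went from 0.04 to 0.14 (log2) for torin1 in WT, from 0.06 to 0.12 in AMPK KO, from 0.02 to 0.16 between genotypes and from 0.03 to 0.12 for torin1 against MK-8722. Under it *Per1* with torin1 in WT and *Cry1* between genotypes lost their calls and no called clock gene changed direction.

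Replicate numbers and passages were checked for pairing over all genes. The 24 pairs of libraries of the same passage had correlated deviations from -0.01 to 0.37 (median 0.13) against a median of -0.04 for 72 pairs of other passages, and the median was 0.01 for pairs with the same replicate number. With passage as a block, 2 clock genes were called for MK-8722 in AMPK KO (*Per2*, adjusted p = 0.00921, and *Per3*, 0.0448) and 3 for the torin1 interaction (*Cry2*, *Nr1d2* and *Dbp*), and no other count of clock genes moved by over 1.5 times. With the replicate number as a block the counts were those without it.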
